A study of Mus musculus with 8 samples.

Results

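The comparison described here asked what the loss of estrogen-related receptor γ (ERRγ, gene Esrrg) from heart muscle cells does to cardiac RNA while the mouse still has a copy of the related receptor ERRα (gene Esrra). Its members were chosen from the sample labels: the 2 αHetγKO libraries and the 2 αHetγWT libraries, 4 of the 8 heart libraries of the series, and every gene in their tables. The αHetγWT mice lacked 1 of their 2 Esrra copies and kept ERRγ. The αHetγKO littermates lacked the same Esrra copy and carried ERRγ deletion through floxed Esrrg alleles and Myh6-Cre, a Cre recombinase driven by the promoter of a cardiomyocyte myosin gene, so that other cells of the heart kept ERRγ. No library of the series came from mice with both Esrra copies, and the sources used here do not say whether the γWT hearts carried Cre. All hearts were taken on postnatal day 16, from mice of C57BL6/J background. Each library was made from pooled RNA of several hearts, which the methods of the study put at 3 per pool and the series description at 2 to 3. Hearts from mice without ERRα, with ERRγ (αKOγWT) or without it (αKOγKO), were used only for comparison. The study describes the αKOγKO mice as having a fatal cardiomyopathy with heart failure from an early age.

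ERRα and ERRγ are orphan nuclear receptors, which means that they bind DNA without a known hormone. Both recognise the same short DNA element and both are activated by the coactivator PGC-1α, encoded by Ppargc1a. In the heart they are known for driving genes of fatty acid oxidation, the citric acid cycle and the respiratory chain, and also genes of contraction, calcium handling and electrical conduction. Because the receptors share their binding element, the loss of one can be compared in hearts that keep or lack the other.

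The libraries held 28.2 to 36.8 M reads uniquely assigned to genes, and 15076 of the 18656 genes listed had enough reads to be tested. Levels are given as RPKM, the reads of a gene, scaled by its length in kilobases and by the reads of the library. Where 2 pairs of values are set against each other, the first pair is the 2 αHetγWT libraries and the second the 2 αHetγKO libraries. Values after ± are standard errors (SE) of log2 fold changes. They were computed as the absolute log2 fold change over the square root of the edgeR test statistic F. Where p-values are given with them, they belong to the fit of the first. Esrra was at 44.9 and 45.8 RPKM in αHetγWT and 46.7 and 45.8 RPKM in αHetγKO, against 1.68 and 1.21 RPKM in αKOγWT, so both groups compared had the ERRα transcript at a like level. Esrrg was at 6.83 and 6.43 RPKM in αHetγWT and 7.75 and 8.23 RPKM in αHetγKO, with no overlap and the knockout libraries higher (log2 fold change 0.25 ± 0.092, SE, edgeR adjusted p = 0.992). A count over the whole gene does not show whether exons are missing, so it does not check the γKO label. Esrrb, the remaining member of the family, was at 3.74 and 3.88 against 3.76 and 4.79 RPKM, and the groups overlapped. The 7 cardiomyocyte markers summed to 26782 and 27684 RPKM in αHetγWT and 27708 and 26306 RPKM in αHetγKO, and Myh6, the myosin whose promoter drives Cre, was at 7675 and 8164 against 7776 and 7549 RPKM. With pooled whole hearts, fewer cells of a type and less RNA per cell cannot be told apart.

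A single gene passed the test in the fit to all 8 libraries, which was 0.00663% of the 15076 tested (edgeR quasi-likelihood test, Benjamini-Hochberg threshold 0.05). It was the pseudogene Gm6644, and it rose. At an unadjusted p under 0.05, 415 genes were higher (2.75%) and 333 lower (2.21%) in αHetγKO. In 3155 genes (20.9%) both αHetγKO libraries were above both αHetγWT libraries after scaling for depth, and in 3102 (20.6%) both were below. With 2 libraries against 2, an exact permutation test of a single value cannot give a two-sided p below 0.333. Leaving out αKOγKO replicate 1, a library outside the comparison, brought 18 genes higher and 6 lower past the threshold, and leaving out αKOγKO replicate 2 brought 16 and 4. Their spread enters the shared estimate: the typical variation between libraries of 1 genotype was 12.1% in the fit to 8 libraries, 8.94% without both αKOγKO libraries and 6.95% in the fit to the 4 libraries alone.

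In the fit to those 4 libraries alone, 63 of 14551 genes were higher in αHetγKO (0.433%) and 42 lower (0.289%). That fit rests on 2 residual degrees of freedom, and its count depended on single libraries. The number higher was 103 without αHetγWT replicate 2, and between 50 and 82 without any other library. The number lower was 72 without αHetγWT replicate 2, 27 without αHetγWT replicate 1, 55 without αHetγKO replicate 1 and 22 without αHetγKO replicate 2. Of the 63 genes, 32 passed whichever library was left out, and of the 42 genes 13 did. Among genes named below, the calls of Nppa, Pdk4, Ucp3, Pfkp, Cacna1a, 2210407C18Rik, Clcn1, Dusp18 and Slc24a2 were lost without αHetγWT replicate 1, and that of Muc5ac without αHetγWT replicate 2. Without αHetγKO replicate 1 the calls of Nppa, Pfkp, Fam78a, 2210407C18Rik and Dusp18 were lost, and without αHetγKO replicate 2 those of Pdk4, Ucp3, Pfkp, Muc5ac, Akr1b10, Magi3, Slc41a1, Clcn1 and Slc24a2. Pfkfb2 was lost whichever library was left out. The DESeq2 Wald test on 8 libraries called 23 genes higher and 18 lower, all of them among the genes of the 4-library fit. Below, a gene is called higher or lower only where a named fit put it past the threshold. Apart from Gm6644, no gene called in this comparison passed in the fit to 8 libraries. Where the groups of a called gene are said not to overlap, this describes its values. It adds no support, since the calls pick genes whose groups stand apart, and 20.9% of all genes stood above and 20.6% below all controls.

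Gm6644 had few assigned reads in the γWT libraries and many in the γKO libraries. It gave 14 and 22 reads in αHetγWT and 608 and 710 reads in αHetγKO, or 0.351 and 0.527 against 15.8 and 15.4 RPKM. The log2 fold change was 5.12 ± 0.19 (SE), a fold of 34.9 (edgeR adjusted p = 2.48e-05). The αKO hearts gave the same split, with 10 and 12 reads in αKOγWT and 571 and 583 in αKOγKO, libraries outside the 4-library fit. Gm6644 lies on chromosome 1 at 55443695 to 55445063 (RefSeq, GRCm38, the build that the submitters' mm10 names), inside the phospholipase-like gene Plcl1 on the opposite strand and outside the exons of Plcl1 in GENCODE vM21. Esrrg is on the same chromosome, 132.2 Mb away. Within 5 Mb of Esrrg, 0 of 57 tested genes passed (1 higher and 1 lower at an unadjusted p under 0.05, edgeR), and within 5 Mb of Gm6644, 0 of 69 other genes did (2 and 1).

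Gm6644 is a processed pseudogene, an intronless copy made from a reverse-transcribed mRNA, of Akr1b3. Akr1b3 encodes aldose reductase, the enzyme that turns glucose into sorbitol. Over its 951 bases the GENCODE transcript Gm6644-201 matched Akr1b3-201 at 948, an identity of 99.68%, against 74.07% for Akr1b10-201 and 73.17% for Akr1b8-201. The 3 differences are A536G, T630C and G841C, written as the base in Akr1b3, the position counted from 1 at the 5′ end of Gm6644-201, and the base in Gm6644. They are shown because, within these 951 bases, a read tells gene and pseudogene apart only where it covers one of them. The RefSeq span of Gm6644 given above is longer than this transcript, and the rest of it was not compared with Akr1b3. The windows below run 5′ to 3′ with the differing base in capitals.
Akr1b3-201 at A536G: gcttaaaatataAgcctgcggtgaa
Gm6644-201 at A536G: gcttaaaatataGgcctgcggtgaa
Akr1b3-201 at T630C: ggtgacagcataTagtccccttggt
Gm6644-201 at T630C: ggtgacagcataCagtccccttggt
Akr1b3-201 at G841C: tttgactttgagGtgagcagcgagg
Gm6644-201 at G841C: tttgactttgagCtgagcagcgagg

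Akr1b3 went the other way from its pseudogene. It was at 68.7 and 64.2 RPKM in αHetγWT and 45.8 and 48.9 RPKM in αHetγKO, lower in the 4-library fit (log2 fold change -0.50 ± 0.062, SE, edgeR adjusted p = 0.00538) and not past the threshold in the fit to 8 libraries (edgeR adjusted p = 0.333). Added together, the reads of gene and pseudogene came to 96.8 and 90.8 CPM (reads scaled to equal library totals) in αHetγWT and 85.8 and 89.8 CPM in αHetγKO. The sum differed less than Akr1b3 alone, which was at 96.3 and 90.0 CPM against 64.2 and 68.6 CPM. Since the authors' counting could split reads between near-identical copies, both genes' values are uncertain, and whether such a split moved reads from one to the other was not tested.

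**Figure D1:**
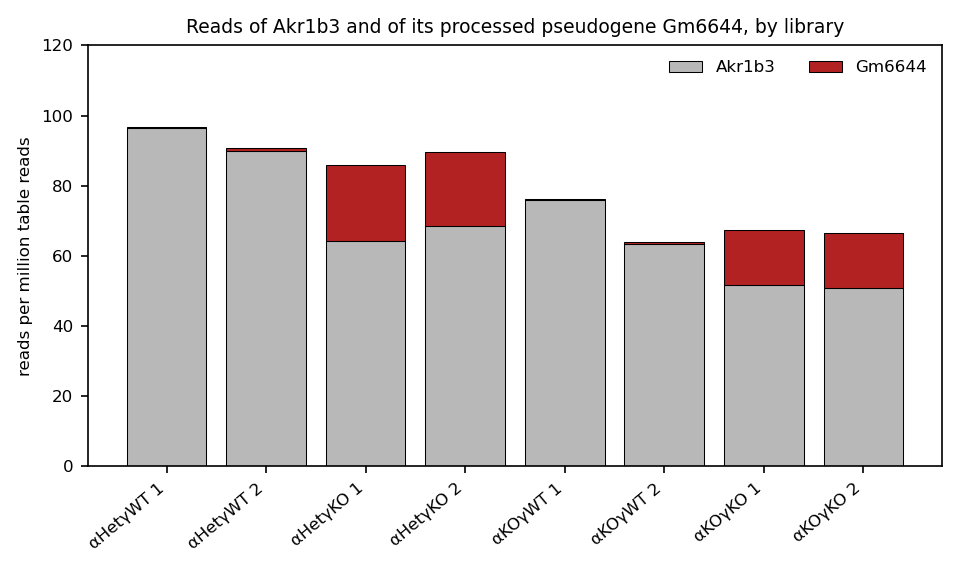
Reads in CPM (scaled to equal library totals) of Akr1b3 (grey) and of its processed pseudogene Gm6644 (red), stacked, for each of the 8 heart libraries on the x axis. The red part is 21.6 and 21.1 in αHetγKO and under 1 in both αHetγWT libraries, while the whole bars of these 4 libraries lie between 85.8 and 96.8.

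Acta2, Acta1, Myl1, Myl9, Pdlim3, Ankrd1, Nppb and Nppa, genes with roles in muscle cells, were higher in αHetγKO in the 4-library fit. They were put together after their values were seen and are no list of their own. Acta2, the actin of smooth muscle and of the embryonic heart, was at 505 and 474 RPKM in αHetγWT and 1143 and 986 RPKM in αHetγKO. Both knockout libraries stood about 2-fold above both controls (log2 fold change 1.11 ± 0.14, SE; edgeR adjusted p = 0.097 on 8 libraries and 0.000225 on 4, DESeq2 8.47e-15). Acta1, the actin of skeletal muscle that the young heart also uses, was at 64.1 and 49.3 against 166 and 125 RPKM (1.35 ± 0.33; edgeR adjusted p = 0.75 and 0.00271). Myl1, a fast skeletal myosin light chain, was at 83.7 and 87.5 against 164 and 133 RPKM (0.79 ± 0.15; edgeR adjusted p = 0.408 and 0.00538). Myl9, a regulatory light chain of smooth muscle myosin, was at 203 and 231 against 345 and 332 RPKM (0.63 ± 0.17; edgeR adjusted p = 0.821 and 0.00419). In all of these genes the 2 groups stood apart without overlap.

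Pdlim3, a protein of the Z-disc, was at 28.6 and 29.2 RPKM in αHetγWT and 43.4 and 46.9 RPKM in αHetγKO, higher in the 4-library fit (0.63 ± 0.066, edgeR adjusted p = 0.00271). Ankrd1, a nuclear and sarcomeric protein that responds to stretch, was at 329 and 402 against 634 and 594 RPKM (0.73 ± 0.089, edgeR adjusted p = 0.00538). The natriuretic peptide genes, which a stretched or failing heart switches on, were higher too. The study states, from earlier work, that mice lacking only cardiac ERRγ were normal in heart function and metabolism, in health and in survival. Nppb was at 74.4 and 79.0 against 112 and 122 RPKM and Nppa at 2313 and 2621 against 3367 and 3176 RPKM, with adjusted p of 0.00391 and 0.0425 in the 4-library fit and 0.992 and 0.992 in the fit to 8 libraries (edgeR). Of the 19 tested genes in the list of heart failure and stress genes, 5 were higher and 1 was lower in the 4-library fit (0.433% and 0.289% of all genes were), 0 passed in the fit to 8 libraries, and the median log2 fold change was 0.13, against 0.0013 over all genes (0.31 without αHetγWT replicate 2). The lower one was Xirp2, a protein of the intercalated disc, at 16.1 and 13.9 against 10.7 and 10.8 RPKM. Gdf15, the stress-induced hormone gene at the centre of the study, gave 15 and 33 reads in αHetγWT and 40 and 33 in αHetγKO. Control replicate 2 and knockout replicate 2 gave the same count.

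Most of the contractile apparatus did not pass. Among 22 tested sarcomere genes 1 was higher in the 4-library fit (Acta1), 0 passed on 8 libraries, and the median log2 fold change was -0.018. Myl2, the ventricular regulatory light chain, was at 10910.0 and 10941 against 9282 and 8892 RPKM, and Myh7, the slow myosin, at 28.3 and 29.4 against 26.4 and 25.1 RPKM. Both were below every control library in both knockout libraries, with log2 fold changes of -0.28 ± 0.12 and -0.18 ± 0.067 (SE; edgeR adjusted p = 0.992 for each), and did not pass. The other smooth muscle markers did not pass with Acta2. Of 9 smooth muscle and pericyte markers Acta2 alone passed in the 4-library fit, the median was 0.026, and Myh11, the smooth muscle myosin, was at 23.8 and 23.7 against 21.7 and 20.9 RPKM.

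**Figure D2:**
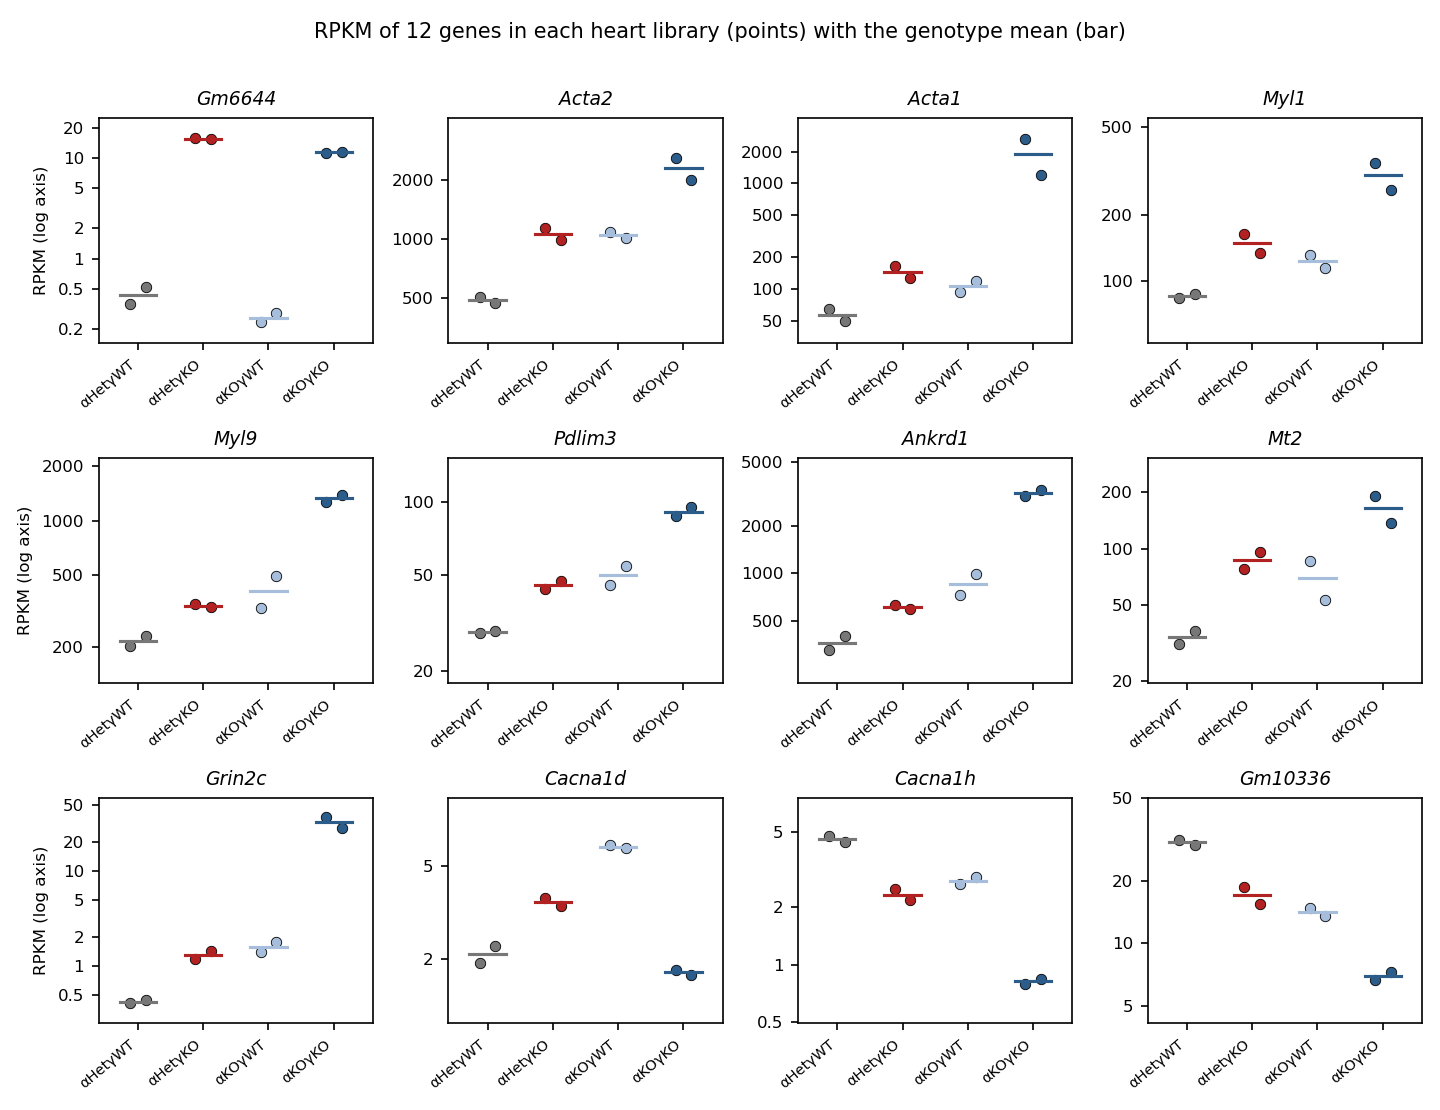
RPKM on log axes of 12 genes in the 8 heart libraries, grouped on the x axis by genotype, with points for libraries and bars for the mean of the 2. In each panel both αHetγKO points lie on the same side of both αHetγWT points, from 3.39 and 3.67 against 1.94 and 2.28 RPKM in Cacna1d to 15.4 and 15.8 against 0.351 and 0.527 RPKM in Gm6644.

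Among ion channels, calcium channel genes passed in both directions in the 4-library fit. Cacna1h, the pore of a low-voltage (T-type) calcium channel, was at 4.71 and 4.39 RPKM in αHetγWT and 2.48 and 2.18 RPKM in αHetγKO. Both knockout libraries lay below both controls. It had the smallest adjusted p after Gm6644 in the fit to 8 libraries (-0.98 ± 0.11, SE; edgeR adjusted p = 0.072), and was lower in the 4-library fit (edgeR adjusted p = 0.00205) and with DESeq2 (adjusted p = 7.57e-08). Cacna1d, the pore of an L-type calcium channel of the sinus node and atria, was at 1.94 and 2.28 against 3.67 and 3.39 RPKM and higher in the 4-library fit (0.73 ± 0.10, edgeR adjusted p = 0.0101). Cacna1a, which encodes a P/Q-type channel best known from neurons, was named after its values were seen. It was at 2.12 and 2.79 against 3.93 and 3.99 RPKM and also higher there (edgeR adjusted p = 0.0363).

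Of the 26 tested genes in the list of ion channels and conduction, Cacna1h alone passed in the 4-library fit, 7 stood above and 12 below all controls (20.9% and 20.6% of all genes did), and the median log2 fold change was -0.067. Hcn2, a pacemaker channel, was at 23.6 and 23.0 RPKM in αHetγWT and 31.3 and 28.2 RPKM in αHetγKO (0.34 ± 0.084, SE; edgeR adjusted p = 0.75). Kcnk3, a potassium leak channel, was at 59.2 and 55.3 against 48.0 and 49.0 RPKM (-0.25 ± 0.069). Neither passed. Clcn1, the chloride channel of skeletal muscle, was at 1.76 and 1.75 against 0.841 and 0.512 RPKM and lower in the 4-library fit (edgeR adjusted p = 0.0304). In the list of 21 calcium handling genes 1 was higher in that fit, Casq1, the calcium-binding protein of skeletal muscle stores, at 23.1 and 26.1 against 36.7 and 34.0 RPKM, and the list median was -0.066.

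Some genes known mostly from brain and eye also passed in the 4-library fit at low levels. Grin2c, a subunit of NMDA receptors, gave 58 and 65 reads in αHetγWT and 162 and 239 in αHetγKO (1.63 ± 0.22 on the log2 scale; edgeR adjusted p = 0.126 on 8 libraries and 0.00538 on 4). Both knockout libraries lay above both controls. Slc24a2, a sodium-calcium-potassium exchanger, was lower with 202 and 127 against 66 and 70 reads (4-library fit, edgeR adjusted p = 0.0493).

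The metallothionein genes Mt1 and Mt2, which encode small proteins that bind zinc and copper, were higher in the 4-library fit. Mt2 was at 31.2 and 36.7 RPKM in αHetγWT and 77.5 and 95.5 RPKM in αHetγKO (1.33 ± 0.11, SE, edgeR adjusted p = 0.000741 on 4 libraries). Mt1 was at 231 and 269 against 366 and 389.6 RPKM (0.58 ± 0.076, edgeR adjusted p = 0.00763). Msrb1, a selenium enzyme that repairs oxidised methionine, was at 85.0 and 81.0 against 110.2 and 111 RPKM (0.40 ± 0.059, edgeR adjusted p = 0.0123). None of the 3 had overlapping groups.

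Several genes of secreted proteins were higher in the 4-library fit. Thbs4, a matricellular thrombospondin, was at 2.43 and 3.30 RPKM in αHetγWT and 6.08 and 6.67 RPKM in αHetγKO (1.14 ± 0.14, SE, edgeR adjusted p = 0.00538). Ndnf, a secreted neurotrophic factor, was at 1.47 and 1.53 against 3.95 and 3.84 RPKM (1.36 ± 0.11, edgeR adjusted p = 0.000729). Ptgds, which makes prostaglandin D, was at 16.2 and 13.8 against 24.4 and 30.8 RPKM (0.87 ± 0.12, edgeR adjusted p = 0.012). Adamts8, a secreted protease, was at 2.30 and 3.49 against 5.30 and 6.33 RPKM. Thsd7a, a membrane protein with thrombospondin repeats, was at 0.741 and 0.982 against 1.76 and 2.16 RPKM (edgeR adjusted p = 0.00538). In none of these genes did the groups overlap. Ndnf, Ptgds and Thsd7a passed in all 3 of the 4-library fit, a fit to 6 libraries without αKOγKO, and DESeq2. Thbs4 and Adamts8 did not pass in the fit to 6 libraries (edgeR adjusted p = 0.0644 and 0.115). Among other genes that passed in all 3 were Abcb4, a phospholipid transporter, at 4.00 and 3.94 against 6.30 and 6.15 RPKM, and Grk3, a kinase that switches off G protein-coupled receptors, at 7.93 and 8.31 against 11.4 and 12.3 RPKM.

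In the metabolic programmes that ERRs are known for, list medians of the log2 fold change lay slightly below 0. In the list of fatty acid uptake and oxidation 23 of 32 genes had a negative log2 fold change, 12 stood below all controls, and the median was -0.045. In that list 2 genes, Pdk4 and Ucp3, were higher in the 4-library fit and 0 passed on 8 libraries. In the 37 genes of respiratory complex I the median was -0.017, with 22 negative and 12 below all controls. In the 42 of complexes II to V and cytochrome c it was -0.049, with 32 negative and 15 below all controls. In the 23 of the citric acid cycle and pyruvate entry it was -0.065, with 21 negative and 12 below all controls. Of all genes 20.6% stood below all controls, and in these last 3 lists 0 genes were called in either fit. The median over all genes tested was 0.0013 and the middle range of all genes, from the lower to the upper quartile, was -0.094 to 0.115. The same 4 lists had 28, 37, 42 and 23 genes lower in αKOγKO against αKOγWT, in the order just given, and medians of -1.03, -1.33, -1.55 and -1.70. In that comparison 2505 of 15076 genes were higher (16.6%) and 2743 lower (18.2%). Idh2, the mitochondrial isocitrate dehydrogenase, was at 870.1 and 894 RPKM in αHetγWT and 741 and 750.1 RPKM in αHetγKO (-0.26 ± 0.088, SE, edgeR adjusted p = 0.977). Hadhb, a subunit of the trifunctional protein of fatty acid oxidation, was at 1058 and 945 against 924 and 878 RPKM, and Cox6c, a subunit of cytochrome oxidase, at 1934 and 1845 against 1740.3 and 1731 RPKM. In Idh2, Hadhb and Cox6c both knockout libraries lay below both controls, and none of the 3 passed.

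Single fuel-switching genes stood out from those lists. Pdk4, the kinase that shuts pyruvate out of the citric acid cycle, was at 246 and 302 RPKM in αHetγWT and 369 and 400.3 RPKM in αHetγKO, higher in the 4-library fit (0.47 ± 0.087, SE, edgeR adjusted p = 0.0455). Ucp3, a mitochondrial carrier induced with fatty acids, was at 36.2 and 39.0 against 48.2 and 50.2 RPKM (0.37 ± 0.063, edgeR adjusted p = 0.0304). Pfkfb2, the cardiac enzyme that makes the activator of glycolysis fructose bisphosphate, was lower, at 18.6 and 18.8 against 14.9 and 15.7 RPKM (-0.31 ± 0.057, edgeR adjusted p = 0.0455). Of 24 tested genes of glucose uptake, glycolysis and lactate, Pfkp was higher and Pfkfb2 lower in that fit, and the median was 0.046. Scd4, a desaturase of fatty acids, and Lrat, which esterifies vitamin A, were named after their values were seen. Lrat was at 2.52 and 2.59 against 5.75 and 4.85 RPKM, and Scd4 gave 1787 and 2380 against 3433 and 3924 reads. Both were higher in the 4-library fit (edgeR adjusted p = 0.00271 and 0.00763).

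**Figure D3:**
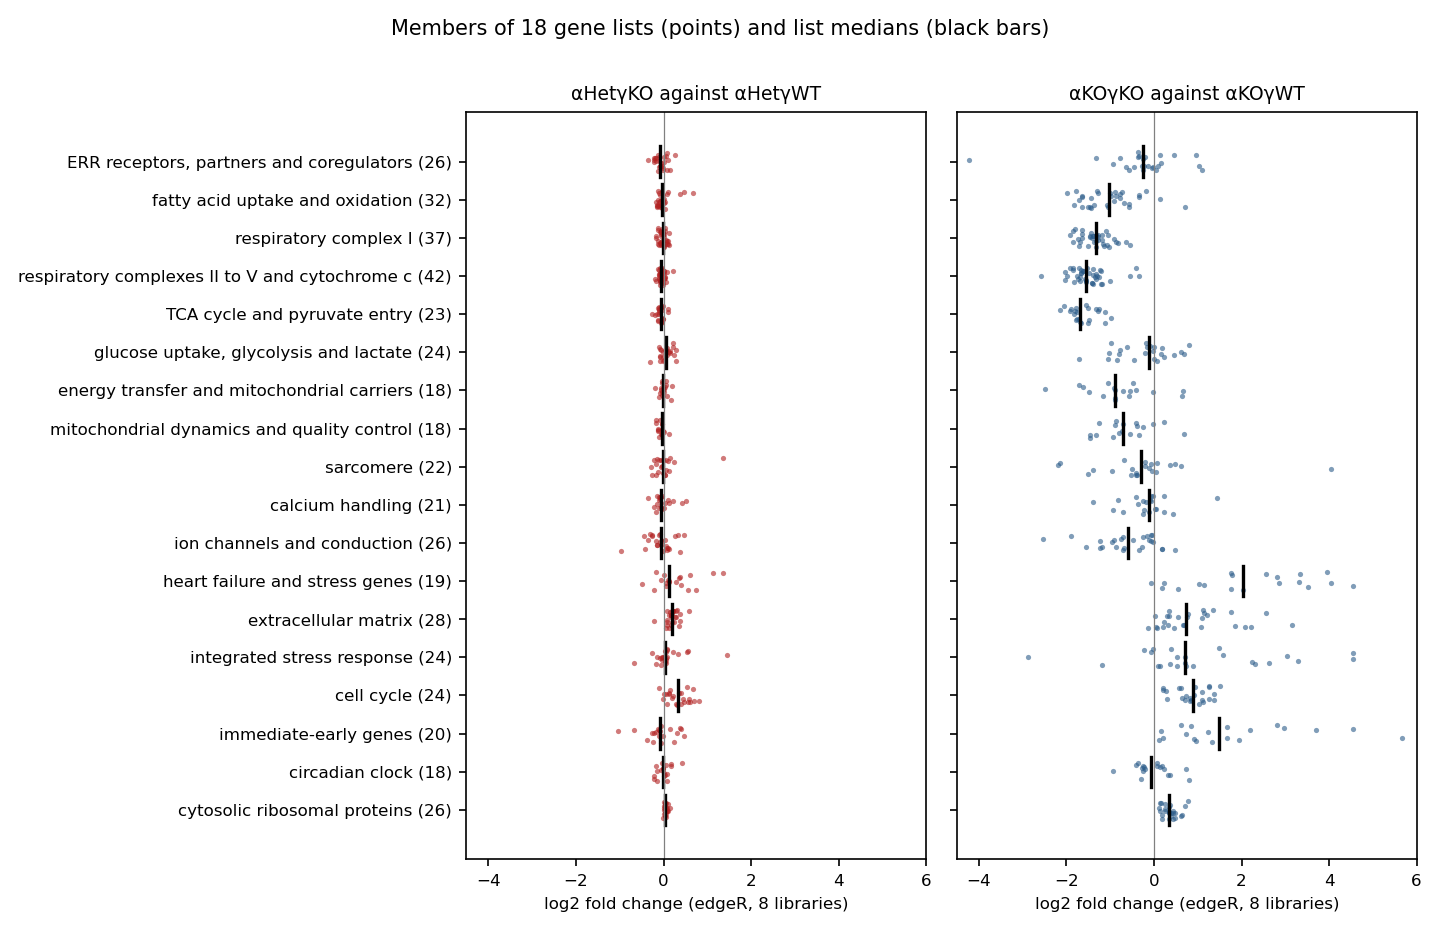
Log2 fold change from the fit to 8 libraries (x axis) of each tested member of 18 gene lists (points), with the list median as a black bar and the number tested in parentheses, for αHetγKO against αHetγWT on the left and αKOγKO against αKOγWT on the right. On the left the medians lie between -0.091 and 0.33, and on the right those of the respiratory and citric acid cycle lists lie between -1.33 and -1.70.

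None of the receptors' own partners passed. Of 26 ERR receptors, partners and coregulators 0 passed in either fit, the median was -0.075, and 14 stood below all controls, against 20.6% of all genes. Ppargc1a, which encodes PGC-1α, was at 35.1 and 44.9 RPKM in αHetγWT and 41.1 and 43.9 RPKM in αHetγKO, with overlap between the groups. Pprc1, a PGC-1 relative, was at 4.34 and 4.16 against 3.57 and 3.18 RPKM (-0.35 ± 0.11, SE, edgeR adjusted p = 0.948). Ppara, a receptor of fatty acids, was at 12.9 and 13.7 against 11.5 and 12.1 RPKM and Perm1, a muscle regulator acting with PGC-1α and ERRs, at 91.8 and 85.8 against 89.6 and 88.5 RPKM.

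Genes that were lower in αHetγKO in the 4-library fit included a noncoding RNA, lipid and transport genes, scaffolds and receptors. Gm10336, a long noncoding RNA, was at 31.6 and 30.0 RPKM in αHetγWT and 18.8 and 15.4 RPKM in αHetγKO (-0.86 ± 0.11, SE; edgeR adjusted p = 0.097 on 8 libraries and 0.00271 on 4). It lies on chromosome 13 at 12182717 to 12186488 (GRCm38), within the span of Mtr (12181331 to 12258199), the gene of methionine synthase. Mtr was at 13.2 and 11.8 against 8.87 and 8.46 RPKM (-0.54 ± 0.076, edgeR adjusted p = 0.0101 on 4 libraries). The counting of strand is not stated in the sources used here, so reads of these overlapping genes may not be told apart. Lclat1, an enzyme that remodels the mitochondrial lipid cardiolipin, was at 31.3 and 28.9 against 21.0 and 20.3 RPKM (-0.56 ± 0.062, edgeR adjusted p = 0.00391). A pair of magnesium transporter genes were lower together, Slc41a1 at 16.7 and 15.5 against 12.2 and 11.3 RPKM and Slc41a3 at 12.9 and 12.2 against 8.50 and 8.11 RPKM (edgeR adjusted p = 0.017 and 0.0101 on 4 libraries).

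Others of the lower genes encode signalling and scaffold proteins. Whrn, a scaffold known from hair cells of the ear, was at 18.8 and 16.5 RPKM in αHetγWT and 12.3 and 11.2 RPKM in αHetγKO (-0.60 ± 0.081, SE, edgeR adjusted p = 0.00911). Ntn1, the guidance factor netrin, gave 3437 and 3411 against 2275 and 2873 reads, and Magi3, a scaffold of cell junctions, was at 13.4 and 12.2 against 9.58 and 9.27 RPKM (edgeR adjusted p = 0.00538 and 0.012). Gpr22, an orphan receptor of heart and brain, was at 4.66 and 4.39 against 2.87 and 2.54 RPKM, and Rhbdl3, a rhomboid family protein, at 7.23 and 6.60 against 4.60 and 4.55 RPKM. Ipo13, a nuclear import receptor, was at 24.0 and 22.5 against 16.4 and 16.7 RPKM, and Akr1b10, an aldo-keto reductase, at 44.2 and 42.6 against 31.8 and 30.6 RPKM. All of these were past the threshold in the 4-library fit and with DESeq2. Over the 42 lower genes the median log2 fold change was -0.494, and over the 63 higher genes it was 0.629.

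Some genes of low level had larger negative log2 fold changes and did not pass in either fit. Ush1c, another scaffold of hair cells, gave 473 and 446 reads in αHetγWT and 252 and 147 in αHetγKO (log2 fold change -1.23 ± 0.36, SE; edgeR adjusted p = 0.948 on 8 libraries and 0.0576 on 4). The transcript E330017L17Rik gave 392 and 251 against 177 and 145 reads (-1.05 ± 0.37). S100a9, a protein of neutrophils, gave 64 and 73 against 30 and 39 reads (-1.05 ± 0.44). The small nuclear RNA Rn7sk gave 93 and 33 against 20 and 31 reads, and only its first control library stood apart. Sh2d4a, an adaptor protein, was at 3.75 and 2.78 against 1.87 and 1.80 RPKM, and the opposite-strand transcript Uckl1os at 3.41 and 3.10 against 2.04 and 1.70 RPKM.

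Among the remaining lists no gene passed in the fit to 8 or to 4 libraries. All but 1 of 28 extracellular matrix genes had a positive log2 fold change, 22 stood above all controls (20.9% of all genes did), and the median was 0.194, with Col1a1, a chain of the main fibrillar collagen, at 118 and 136 against 149 and 180.1 RPKM (0.36 ± 0.16, SE, edgeR adjusted p = 0.992). In 24 cell cycle genes 22 were positive, 12 stood above all controls, and the median was 0.327. Plk1, a mitotic kinase, gave 66 and 78 against 93 and 175 reads. Summed, the cell cycle list was at 118 and 117 RPKM in αHetγWT and 121 and 136 RPKM in αHetγKO, so the sum rose mostly in αHetγKO replicate 2. The 26 cytosolic ribosomal protein genes had a median of 0.045 and 10 above all controls. The 24 tested genes of the integrated stress response had a median of 0.043, with Cth, an enzyme of cysteine synthesis, at 28 and 16 reads in αHetγWT and 51 and 76 in αHetγKO, and Psat1, which acts in serine synthesis, at 2.33 and 2.29 against 3.42 and 3.36 RPKM. Medians were -0.091 in 20 immediate-early genes, -0.0014 in 18 circadian clock genes (0.011 with upper-quartile scaling), -0.041 in 18 genes of mitochondrial dynamics and quality control, -0.023 in 18 of energy transfer and mitochondrial carriers, and -0.143 in 5 sex-linked genes. The sex-linked list holds Xist and Y-linked genes, which mark opposite sexes, so its median does not show the sex of the pooled hearts. Its 5 log2 fold changes were all negative, from -0.312 to -0.094. The study used both sexes, and the sample labels do not give the sex of a pool.

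Among genes of airway epithelium, cells that a heart should not hold, 7 of 14 were higher in αHetγKO in the 4-library fit. The list of 14 such genes was written after their values were seen, so its counts are a description. All 14 had positive log2 fold changes, 13 stood above all controls (20.9% of all genes did) and 0 passed on 8 libraries (3 at an unadjusted p under 0.05, edgeR, and 1 with DESeq2). The median log2 fold change was 1.81, and it was 2.93 without αHetγWT replicate 1 and 1.12 without αHetγWT replicate 2. Summed, the list was at 127 and 53.4 RPKM in αHetγWT and 218 and 339 RPKM in αHetγKO. Beyond the comparison the sum was 14.1 and 365 RPKM in αKOγWT and 240 and 161 RPKM in αKOγKO, and the 2 αKOγWT libraries lay at opposite ends of all 8. Scgb1a1, the secretoglobin of club cells, was at 49.1 and 19.5 RPKM in αHetγWT and 103 and 139 RPKM in αHetγKO. Clca1, a protein secreted with mucus, was at 0.362 and 0.581 against 5.71 and 18.4 RPKM, and the defining gene Muc5ac, an airway mucin, gave 2 and 0 against 21 and 64 reads. Genes of the alveoli stayed low, with the 5 markers summing to 1.86 and 1.49 RPKM in αHetγWT and 1.96 and 2.44 RPKM in αHetγKO. The part of this tissue in the other results was not tested.

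**Figure D4:**
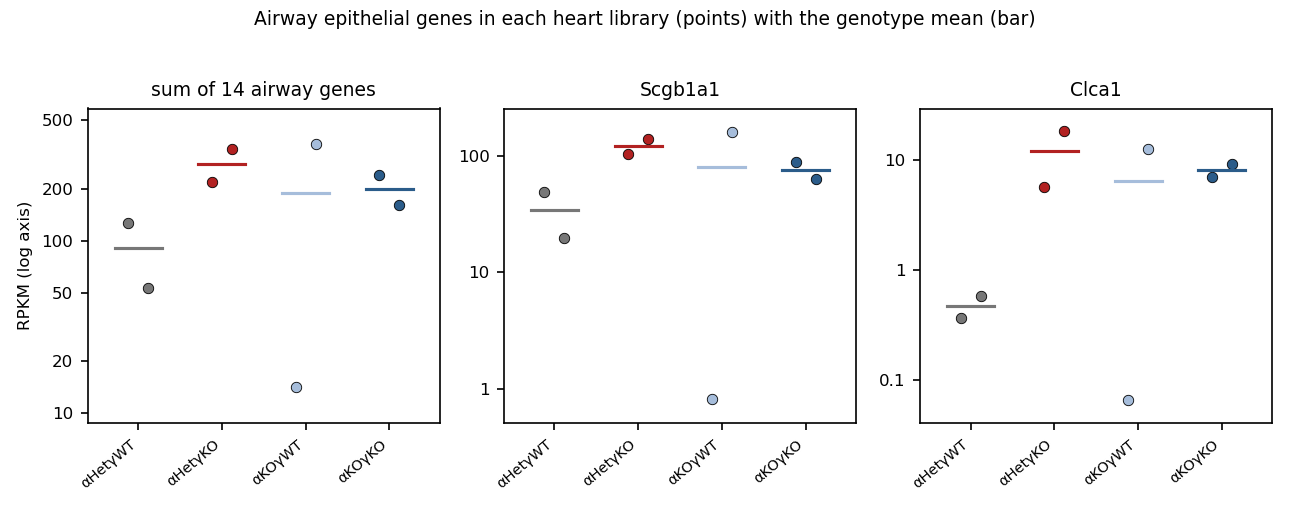
RPKM on log axes of the sum of 14 airway epithelial genes, of Scgb1a1 and of Clca1 in the 8 heart libraries, grouped on the x axis by genotype, with points for libraries and bars for the mean of the 2. For the sum both αHetγKO points (218 and 339) lie above both αHetγWT points (127 and 53.4), and the αKOγWT points lie at 14.1 and 365.

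Other cell type markers moved less, and none passed in the fit to 8 libraries. All 11 macrophage markers had positive log2 fold changes (median 0.183) and summed to 165 and 141 RPKM in αHetγWT and 182 and 174 RPKM in αHetγKO. The 9 fibroblast markers had a median of 0.182 and sums of 1184 and 1166 against 1288 and 1289 RPKM. The extracellular matrix genes moved the same way, but both lists hold Col1a1, Dcn and Lum. The part of fibroblasts in the values of the matrix genes was not tested. The 7 atrial markers had a median of 0.122 and sums of 4682 and 5126 against 6289 and 5830 RPKM, of which Nppa is the largest, and the median was -0.0062 without αHetγKO replicate 1 and 0.24 without αHetγKO replicate 2. Their part in the values of Nppa and Nppb was not tested. The 7 adipocyte markers were all negative (median -0.412), but their sums, 229 and 99.5 against 159 and 96.1 RPKM, overlapped and the median was 0.34 without αHetγWT replicate 1. Medians were -0.0090 in 12 endothelial (0.0038 with upper-quartile scaling), -0.186 in 8 erythroid, 0.060 in 4 lymphocyte, 0.408 in 6 skeletal muscle, 0.258 in 8 neuron and glia and -0.158 in 6 epicardial markers. Of the thymus list 1 gene was tested (0.488). The skeletal muscle sum, 1927 and 1942 against 2050.1 and 2014 RPKM, is mostly Ckm, which the heart also expresses.

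The αKO hearts show the same genes when ERRγ is lost with no ERRα left, in other hearts. The αKOγKO hearts were failing, by the account of the study, so receptor loss and heart failure cannot be told apart in them. Their libraries enter the fit to 8 libraries, but not the 4-library fit. Of the 63 genes higher in αHetγKO, 40 had the same sign in αKOγKO against αKOγWT (63.5%), 28 were higher there and 15 lower. These 63 include 7 of the airway genes described above, whose list summed to 14.1 and 365 RPKM in αKOγWT. Of all 14551 genes 2442 were higher and 2732 lower in that comparison. Of the 42 lower genes 32 had the same sign (76.2%), 24 were lower there and 7 higher. Over all genes of the 4-library fit 57.8% had the same sign. Acta2 was at 1090.1 and 1019 RPKM in αKOγWT and 2608 and 2012 RPKM in αKOγKO (log2 fold change 1.00 ± 0.14, SE, edgeR adjusted p = 0.000646). In the αHet hearts the log2 fold change was 1.11, and the αKOγWT level lay close to that of αHetγKO, 1143 and 986 RPKM. Cacna1h was at 2.65 and 2.88 RPKM in αKOγWT and 0.795 and 0.840 RPKM in αKOγKO (-1.89 ± 0.11, edgeR adjusted p = 5.92e-06), and its log2 fold change differed from that in αHet hearts by -0.91 (interaction, edgeR adjusted p = 0.0046). Grin2c, Thbs4, Acta1 and Nppb rose more in αKO hearts (interaction, edgeR adjusted p = 0.000486, 0.000402, 0.00548 and 0.00317), with log2 fold changes of 4.23, 3.51, 4.05 and 3.32 against 1.63, 1.14, 1.35 and 0.60 in αHet hearts.

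Some genes had log2 fold changes of opposite sign in the 2 backgrounds, and for each of those named here the difference passed the interaction test (edgeR adjusted p under the threshold). Pairs set against each other are here αKOγWT and αKOγKO. Cacna1d was at 6.15 and 5.99 RPKM in αKOγWT and 1.81 and 1.72 RPKM in αKOγKO (-1.91 on the log2 scale, where αHet hearts had 0.73). Pdk4 was at 364 and 431 against 290.2 and 298 RPKM (-0.57 against 0.47) and Ucp3 at 49.3 and 53.2 against 23.1 and 32.7 RPKM (-1.01 against 0.37). Lrat was at 4.67 and 2.05 against 0.152 and 0.0713 RPKM (-5.02 against 1.04), and the transcript 2210407C18Rik, named after its values were seen, had -4.68 against 0.57. Dusp18, a phosphatase, was the reverse case, lower in αHetγKO (15.5 and 14.7 RPKM in αHetγWT and 9.42 and 11.7 RPKM in αHetγKO) and higher in αKOγKO (0.60 against -0.53).

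**Figure D5:**
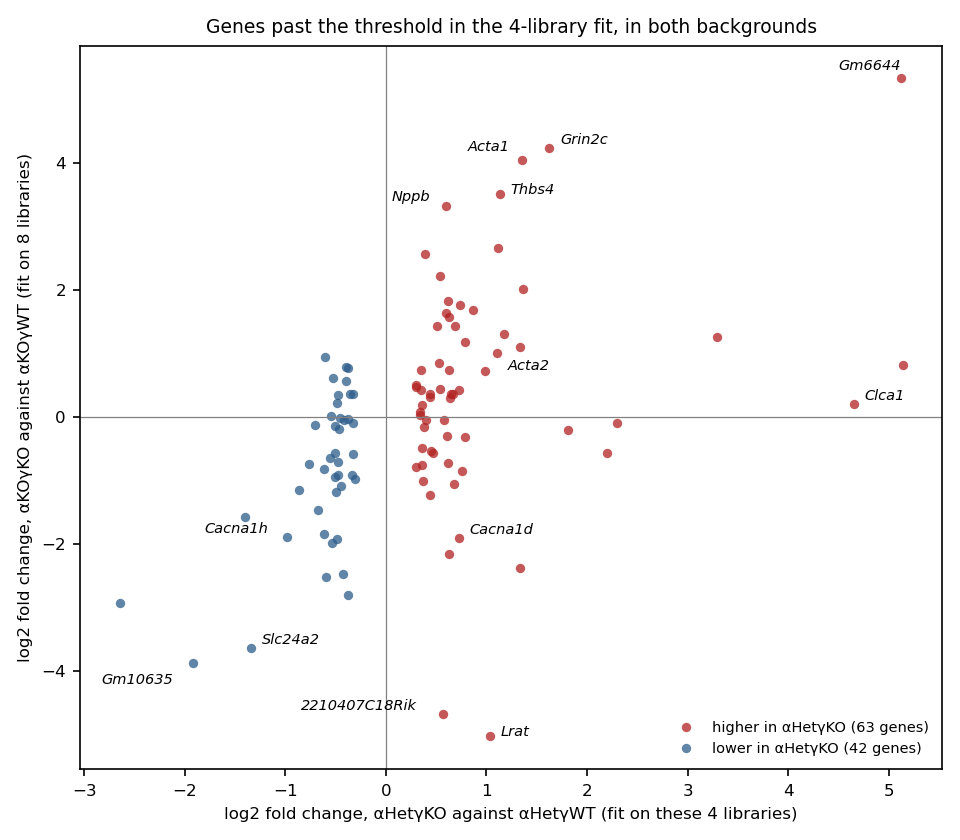
Log2 fold change in αHetγKO against αHetγWT from the fit to these 4 libraries (x axis) and in αKOγKO against αKOγWT from the fit to 8 libraries (y axis) for the 63 genes higher (red) and the 42 lower (blue) in the first. Gm6644 is at 5.12 and 5.32, while Lrat is at 1.04 and -5.02, and 40 red and 32 blue points have the same sign on both axes. The red points include 7 airway genes.

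Promoters of the genes of the 4-library fit were searched for the binding element of ERRs and for the CArG box, the element of serum response factor in actin genes. The window was 250 bases before to 50 after the start (RefSeq, GRCm38.p6), on both strands. The extended ERR element TNAAGGTCA was in 1 of the 47 higher genes with a matched promoter (2.13%) and in 0 of the 28 lower genes. Of all genes 1.43% held it. The shorter AAGGTCA, which the extended element contains, was in 4 higher genes (8.51%), 1 lower gene (3.57%) and 5.38% of all. The CArG box was in 3 higher genes (6.38%), 2 lower genes (7.14%) and 1.81% of all, so it was not particular to the higher genes. Among lower genes, Lclat1 held a CArG box and Akr1b10 the element AAGGTCA, and their sequences are not shown. The match in each promoter is a description of letters and not a site. The 250 bases before the start are shown for 2 genes of light chain and actin that were higher together and hold a CArG box, and for 2 higher genes that hold an ERR element, with matches in capitals, 5′ to 3′ on the strand of the gene.
Acta1, CArG box, chr8:123894776-123895025, minus strand: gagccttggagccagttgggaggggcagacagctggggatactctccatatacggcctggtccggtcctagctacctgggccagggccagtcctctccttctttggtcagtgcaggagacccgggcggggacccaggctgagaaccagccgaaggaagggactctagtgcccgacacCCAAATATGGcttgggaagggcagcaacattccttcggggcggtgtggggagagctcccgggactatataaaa
Myl9, CArG box, chr2:156775214-156775463, plus strand: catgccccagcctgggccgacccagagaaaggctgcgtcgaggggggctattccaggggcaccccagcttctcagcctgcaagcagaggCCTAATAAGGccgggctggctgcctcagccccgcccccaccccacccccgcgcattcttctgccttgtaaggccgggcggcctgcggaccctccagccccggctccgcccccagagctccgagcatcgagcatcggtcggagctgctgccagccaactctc
Grin2c, AAGGTCA, chr11:115267244-115267493, minus strand: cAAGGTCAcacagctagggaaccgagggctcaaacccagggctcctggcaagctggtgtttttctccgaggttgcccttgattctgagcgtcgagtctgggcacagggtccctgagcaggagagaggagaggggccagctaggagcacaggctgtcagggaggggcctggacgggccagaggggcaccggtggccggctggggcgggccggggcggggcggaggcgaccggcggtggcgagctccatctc
Fam78a, TNAAGGTCA, chr2:32064165-32064414, minus strand: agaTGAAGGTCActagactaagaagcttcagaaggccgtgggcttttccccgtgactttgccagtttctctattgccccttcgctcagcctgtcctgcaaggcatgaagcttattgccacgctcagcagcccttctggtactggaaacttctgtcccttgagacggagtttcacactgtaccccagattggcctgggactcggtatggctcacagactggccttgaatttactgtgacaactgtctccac
Fam78a, a gene of unsettled function, was at 9.49 and 8.95 RPKM in αHetγWT and 12.8 and 12.6 RPKM in αHetγKO (0.45 ± 0.070, SE, edgeR adjusted p = 0.0216 on 4 libraries).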

How the data were processed

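RNA from pooled mouse hearts was sequenced as paired-end libraries, 2 for each of 4 genotypes. The authors deposited 1 table per library with the number of uniquely assigned reads per gene (counts, not normalized). The same deposited tables give RPKM, the count scaled by gene length in kilobases and by the assigned reads of the library, and the gene length and coverage, which were not tested. The submitters' processing notes name the build mm10. The aligner, counter, annotation and strand setting are not given in the sources used here. Table totals were 28.2 to 36.8 M reads, and reads were treated as independent, so errors cover counting and the spread between libraries. Between 69.1% and 73.0% of counts of up to 20 were even numbers, so both mates of a pair may have been counted in places, and the test was therefore repeated on counts divided by 2. Fold changes of genes with few reads have wide errors at this depth.

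Tables were joined by gene identifier with absent genes at 0, and symbols came from RefSeq (44 of 18656 genes had none). Genes were kept with filterByExpr (minimum count 10, minimum total 15). Counts were scaled by TMM and tested with the edgeR 4.0.16 quasi-likelihood test in R 4.3.3, with a mean per genotype over 8 libraries and 4 residual degrees of freedom. p-values were adjusted over all tested genes by Benjamini-Hochberg at 0.05. DESeq2 1.42.0 served as an alternative, and sequences were aligned with Biopython 1.88. The test script was checked on simulated counts with known changes. Nothing states how hearts were allotted to pools, so p-values measure the spread between these libraries of pooled hearts. Alternatives were other size factors, other filters, DESeq2, fits to 4 or 6 libraries, a replicate block and leaving out each library. Counts divided by 2, leaving out libraries within the 4-library fit, and the airway and alveolar lists were added after seeing the data. The members, the 19 pathway lists, the 13 marker lists and the tests were chosen with earlier results of these data known.

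Genes named were the ERR genes and Gm6644, genes past the threshold in at least 2 of 4 fits, and the 12 largest differences each way without overlap at 1 RPKM or more. Added to these were the 10 smallest p-values, the 3 smallest p-values of each pathway list, and Myh6, Nppa, Nppb, Gdf15, Ppargc1a, Ppara and Perm1. Muc5ac, Scgb1a1 and Clca1 came in by this rule, but the airway list that holds them was written after its values were seen. The other genes in the text, among them Myh11, Cacna1a, Scd4, Lrat, 2210407C18Rik and the remaining airway and cell type markers, were chosen after their values were seen. Some genes that the rule takes in are not reported here. Promoter sequences are from RefSeq (GRCm38.p6) and transcript sequences from GENCODE vM21.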

Additional observations from a re-analysis of the deposited data

Results flagged for a closer look

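The effect of ERRγ loss differed between hearts without ERRα and hearts with 1 copy in the 29 genes listed here. They passed the interaction test of edgeR on all 8 libraries (adjusted p below 0.05). The list is not complete. Other genes of the text passed too, among them Pfkfb2 and Cacna1a (interaction, edgeR adjusted p = 0.00166 and 0.0064). Over all genes this test called 2640 of 15076, so a difference between the backgrounds was common. Each value is the log2 fold change of the αKO pair of groups less that of the αHet pair, and all αHet values rest on 2 libraries against 2. Among the 29 genes the difference was positive in 14 and negative in 15, and in 11 the log2 fold changes had opposite signs.

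Among the listed genes with a positive difference, Nppb and Acta1 had the largest values. The values were Nppb at 2.73, Acta1 at 2.70, Grin2c at 2.60, Thbs4 at 2.37, Nppa at 2.17, Efhd2 at 1.68, Dusp18 at 1.13, Ankrd1 at 1.03, Myl9 at 0.94, Fsd1l at 0.82, Ptgds at 0.81, Esrrg at 0.70, Mtr at 0.55 and Magi3 at 0.44. Nppb and Nppa encode natriuretic peptides, Acta1 and Myl9 contractile proteins and Thbs4 a matrix protein. Esrrg itself is in this group, and its whole-gene count does not show the deletion.

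Among the listed genes with a negative difference, several took opposite signs in the 2 backgrounds, among them Cacna1d, Hcn2, Lrat, Pdk4 and Ucp3. The values were Lrat at -6.06, 2210407C18Rik at -5.25, Ush1c at -3.85, E330017L17Rik at -3.69, Hcn2 at -2.87, Cacna1d at -2.64, Slc24a2 at -2.30, Whrn at -1.92, Akr1b10 at -1.43, Ucp3 at -1.38, Rhbdl3 at -1.23, Pdk4 at -1.04, Fam78a at -0.99, Cacna1h at -0.91 and Msrb1 at -0.46.

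In 22 of the 29 genes the difference passed with DESeq2 and whichever library was left out. It was lost in 7. Ankrd1 was lost without αHetγWT replicate 2 or either αHetγKO replicate (edgeR adjusted p of 0.0509 to 0.0667), and Myl9 without any 1 αHet library (0.0631 to 0.114). Fam78a was lost without any 1 αHet or αKOγWT library (edgeR adjusted p of 0.062 to 0.0954), and Magi3 also without αKOγKO replicate 1 (0.0503 to 0.161). Msrb1 was lost without αHetγWT replicate 2, either αHetγKO replicate or αKOγWT replicate 1 (0.0537 to 0.073, edgeR adjusted p). Mtr was lost without αHetγWT replicate 1, either αHetγKO replicate or αKOγWT replicate 2 (0.0674 to 0.103, edgeR adjusted p). Ptgds was lost without replicate 1 of αHetγWT, αHetγKO or αKOγWT (0.0541 to 0.0707, edgeR adjusted p). What lies behind these differences was not tested, and in αKOγKO hearts receptor loss and heart failure cannot be told apart.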

How the results depend on the processing

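The counts of genes past the adjusted threshold were 1 higher and 0 lower with RLE or upper-quartile factors, with genes of at least 5 RPKM and with counts divided by 2. They were 3 and 2 without the filter, 63 and 42 in the fit to 4 libraries, 16 and 7 in the fit to 6 libraries, and 23 and 18 with DESeq2. Leaving out 1 library at a time gave 1 to 18 higher and 0 to 6 lower. At an unadjusted p under 0.05 the counts were 210 higher and 181 lower with at least 5 RPKM, 871 and 771 with 4 libraries, 673 and 597 with 6 libraries, and 280.0 and 209 with DESeq2. Leaving out 1 library gave 184 to 699 higher and 147 to 596 lower. In the 4-library fit, leaving out 1 library gave 50 to 103 higher and 22 to 72 lower, with 27 lower without αHetγWT replicate 1. Apart from the libraries and genes each fit holds, the cause of these differences was not tested.

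With the replicate number as a block, 2 genes were higher and 0 lower. Libraries with the same number did not deviate together (correlation of 0.027 between αHetγWT and αHetγKO), so the numbers were not read as a pairing. Among named genes, directions turned for differences near zero in ERR genes and coactivators. With 1 library left out, Esrra ranged from -0.016 to 0.040 on the log2 scale, Esrrb from -0.018 to 0.30, Perm1 from -0.049 to 0.031 (0.013 without αHetγKO replicate 2) and Ppargc1a from -0.10 to 0.27. With upper-quartile factors Perm1 was at 0.0033. List medians near zero also changed sign, that of ion channels and conduction to 0.0074 without αHetγKO replicate 2 and that of smooth muscle and pericyte to -0.046 without αHetγWT replicate 1. Of the named genes, 54 came past the threshold with 4 libraries, 22 with 6 and 40 with DESeq2.

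Each genotype has 2 libraries of pooled hearts. Genes with few reads have wider standard errors than abundant genes. Whole-gene counts do not show the floxed deletion, and reads of Akr1b3 and Gm6644 cannot be told apart where the sequences are identical.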
